A study of Mus musculus with 8 samples.

Results

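The cytosolic ribosomal protein genes of the mouse were followed across 8 mRNA-seq libraries from the whole spine of embryos at E18.5. Members were chosen by symbol: Rpl or Rps followed by a number, with an optional final letter or X, plus Rplp0, Rplp1, Rplp2 and Rpsa, and without pseudogenes, the Rps6k kinases and the paralogs named Like. They are 76 of the 27179 genes counted, 46 of the large subunit and 30 of the small subunit. The study compared wild type (WT) embryos with embryos that carry the Pax1-Enh knockout (KO), a deletion that the title places in a sex-associated region at Pax1 linked to adolescent idiopathic scoliosis. The 4 groups were WT males, WT females, KO males and KO females, with 2 libraries each, called 1 and 2 as in the labels. No other allele, agent or strain is named in the labels, and they do not say whether the 2 libraries of a group came from separate embryos, so p-values measure only the spread between these libraries. In a bulk tissue, fewer cells of a type and less RNA per cell cannot be told apart.

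The ribosome translates mRNA into protein. Its small subunit reads the message and its large subunit joins amino acids, and each is built from ribosomal RNA and a set of proteins that are needed in nearly equal numbers. Cells make these proteins from highly abundant, short mRNAs whose translation is governed together through a pyrimidine tract at their cap, the terminal oligopyrimidine or TOP motif. Loss of 1 copy of single members is known for tissue-restricted defects, among them the short tail and altered vertebrae of Rpl38 and Rpl24 mutant mice and the anaemia of Diamond-Blackfan syndrome.

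Library totals ran from 35181518 to 67575728 counts, and all 4 KO libraries were deeper than all 4 WT libraries, so depth and genotype cannot be told apart. Pax1 had 20.4 and 17.0 TMM-normalised CPM (counts scaled to library size) in WT males, 27.0 and 18.6 in WT females, 28.3 and 18.9 in KO males and 30.4 and 19.9 in KO females. Its log2 fold change over both sexes was 0.24 (SE 0.22, edgeR adjusted p = 0.923). The extent of the deletion is not given in the labels, so this level does not check them. Summed cartilage markers (8 of 8 tested) reached 6496 to 12970 CPM in the WT libraries and 13300 to 29460 CPM in the KO libraries. Osteoblast markers summed to 5703 to 8009 CPM in the WT libraries and 8079 to 11620 CPM in the KO libraries, with 8 of 8 positive over both sexes. Skeletal muscle markers (12290 to 34930 CPM) and neuron markers (1672 to 2675 CPM) were present in every library. Over both sexes all 8 muscle markers were positive (median log2 fold change 0.51), and the neuron markers split into 4 positive and 4 negative. All 7 tested erythroid markers were negative (median -0.60). Summed muscle and erythroid markers overlapped between KO and WT libraries. Summed adipocyte markers were lower in every KO library (245 to 475 CPM) than in every WT library, with 5306 CPM in male WT 1, 5474 CPM in female WT 2 and 829 to 843 CPM in the other WT libraries. All 8 adipocyte markers had negative values over both sexes (median log2 fold change -4.0). DESeq2 called 6 of them, against 0.779% of all genes, and edgeR called 0. Neither tool called a cartilage, osteoblast, skeletal muscle or erythroid marker over both sexes. Exocrine pancreas markers summed to 1993 CPM in female WT 1 and to 1.04 to 6.43 CPM in the other libraries. The part of these tissues in the results below was not tested.

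Ribosomal protein mRNAs were abundant in every library. Per kilobase of transcript, the mean level of the 75 members that passed the filter on low counts ran from 137 to 3445 CPM, with a median of 867 CPM. The median was 846 CPM per kb over 45 large subunit genes and 963 CPM per kb over 30 small subunit genes. The plot of levels per length shows this range, and it also shows how far apart the 8 libraries stood for a single gene.

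**Figure D1:**
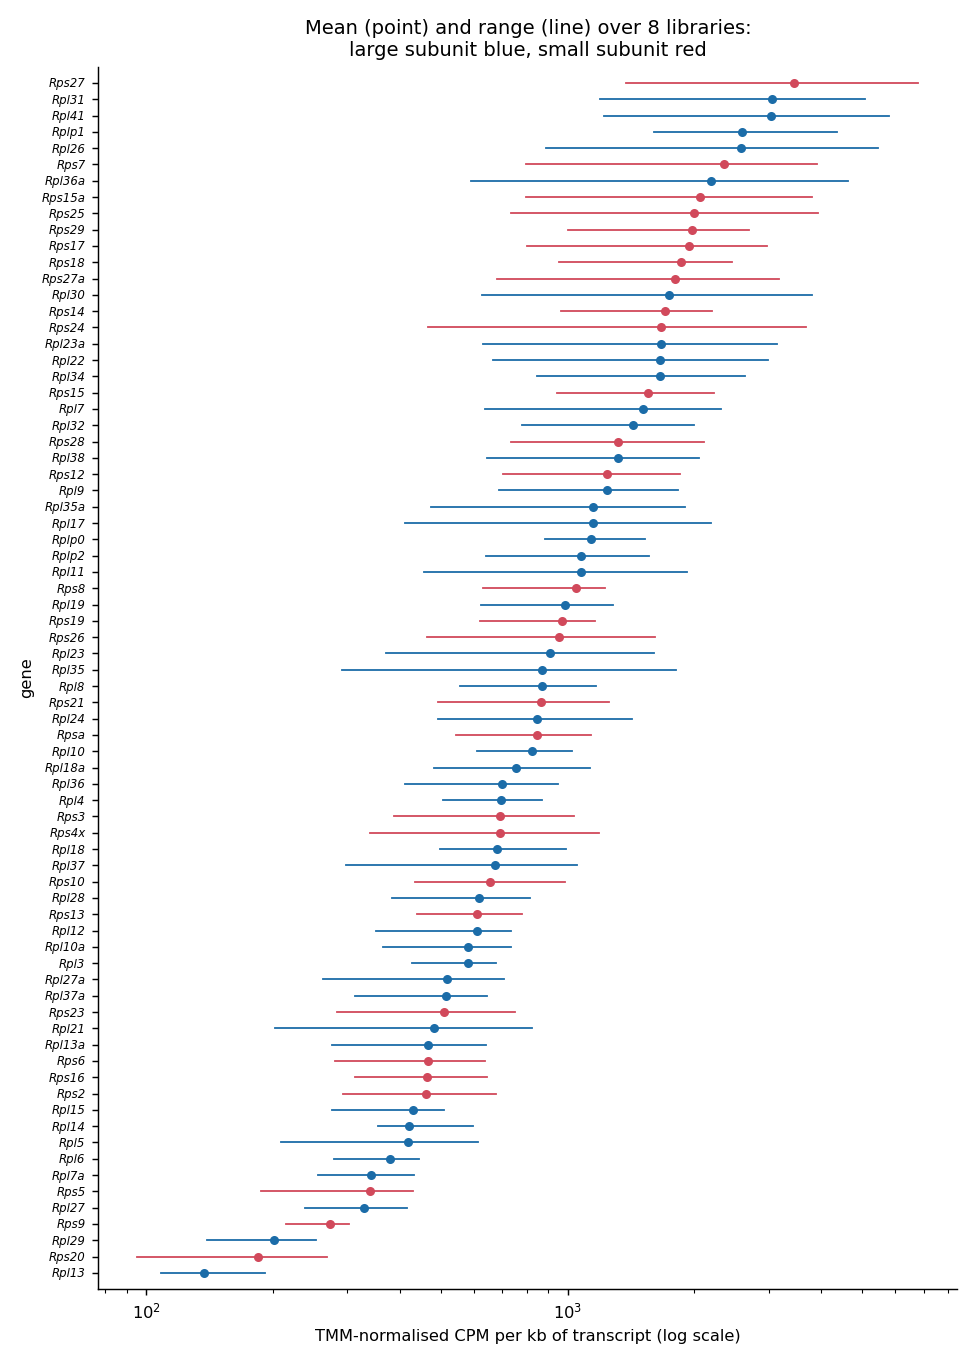
TMM-normalised CPM per kilobase of transcript (log scale, horizontal) for 74 of the 75 tested members (vertical), with the mean over 8 libraries as a point and the lowest and highest library as the ends of a line. Rps27 stands highest at 3445 and Rpl13 lowest at 137, and the line of Rps24 is the longest relative to its level.

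The 5 members with the highest mean level per kilobase were Rps27, Rpl31, Rpl41, Rplp1 and Rpl26. Rps27, a zinc-finger protein of the small subunit, had 3445 ± 2178 CPM per kb (SD over the 8 libraries). Rpl31 had 3056 ± 1579 and Rpl41, which encodes the shortest protein of the ribosome, had 3043 ± 1390. Rplp1, a protein of the acidic stalk that recruits elongation factors, had 2600 ± 860.9, and Rpl26 had 2578 ± 1639. These neighbours differed by less than their own spread over libraries, so their order is not resolved.

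At the low end stood Rpl39, Rpl13, Rps20, Rpl29 and Rps9. Rpl39, an exit tunnel protein, had 1 to 6 counts in a library, which is at or under the 3-count floor in 5 of the 8, and it was not tested. Rpl13 had 137 ± 28.9 CPM per kb, Rps20 184 ± 58.1, Rpl29 201 ± 39.9 and Rps9 273 ± 32.6. The value of Rps20 rests on an annotated transcript of 3706 nucleotides, where the median member has 705. Members have near-identical processed copies elsewhere in the genome, and how reads that match several places were counted is not given in the sources used here, so levels between members are uncertain. The 34 pseudogenes named after members held 0.0972% to 0.132% of the members' own counts.

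Some ribosomal proteins fall outside the symbol rule. Rps3a1, the mouse gene of a numbered small subunit protein, had 2236 and 2235 CPM in WT males, 1025 and 951 in WT females, 682 and 2470 in KO males, and 1814 and 874 in KO females. Rack1, a scaffold on the small subunit, lay between 435 and 844 CPM, and Fau, a fusion that releases a small subunit protein, between 193 and 373 CPM. Of the paralogs named Like, Rpl22l1 reached 1610 CPM in male WT 2 and 164 CPM in female KO 2. The muscle paralog Rpl3l lay between 4.10 and 20.4 CPM, and Rpl10l had no count in any library.

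The starts of several members are shown because the TOP motif is the sequence feature the family is best known for. The RefSeq promoter table (GRCm38.p6) matched 56 of the 76 members with 66 windows. The 30 bases from 10 before an annotated start are printed below, with the longest run of C and T in capitals, so that the first transcribed base is the eleventh letter. Where a gene had several windows, the one with the longest run is printed. The printed starts were thus selected for the feature they show. Those of Rpl38 and Rps2 lie inside the gene, whose annotated start is at 114667818 and 24718121. In Rpl36a and Rps2 the capitals begin after the eleventh letter, so they mark no tract at the first base. Positions are chr14:24490668-24490697 on the plus strand for Rps24, chr7:118116128-118116157 on the minus strand for Rps15a, chrX:134585644-134585673 on the plus strand for Rpl36a, and chr11:114668570-114668599 on the plus strand for Rpl38. They are chr4:86857348-86857377 on the minus strand for Rps6, chr7:141447641-141447670 on the plus strand for Rplp2, and chr17:24720053-24720082 on the plus strand for Rps2.
Rps24: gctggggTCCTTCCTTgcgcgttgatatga
Rps15a: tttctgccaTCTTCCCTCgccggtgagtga
Rpl36a: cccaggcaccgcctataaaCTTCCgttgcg
Rpl38: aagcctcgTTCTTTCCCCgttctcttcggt
Rps6: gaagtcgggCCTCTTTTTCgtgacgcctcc
Rplp2: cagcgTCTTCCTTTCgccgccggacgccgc
Rps2: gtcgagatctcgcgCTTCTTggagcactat

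A pyrimidine run of at least 8 bases lay in this 30-base window in 23 of 66 member windows (34.8%) and in 11.2% of all 32851 windows of the table. The first base was C or T in 45.5% of member windows and 30.04% of all windows. Over the full window, 250 bases before to 50 after the start and on both strands, GGGCGG was found in 60.6% of member windows against 35.7% of all. CCGGAAG was found in 36.4% against 8.86% and AAGATGG in 16.7% against 6.34%, while TATAAA was found in 9.09% against 13.6%. These matches describe letters and not binding, and windows of 1 gene overlap.

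To see how much of each library the family takes up, the members' counts were summed. They made up 6.68% and 6.29% of all counts in WT males, 6.19% and 5.04% in WT females, 3.42% and 6.04% in KO males, and 7.30% and 4.29% in KO females. The highest and the lowest share were both in KO libraries, and the 2 KO libraries of each sex lay further apart than the 2 WT libraries of that sex. Group means were 6.48 ± 0.274% in WT males, 5.61 ± 0.815% in WT females, 4.73 ± 1.85% in KO males and 5.80 ± 2.13% in KO females (SD, n = 2 each). Both subunits followed the same order between the KO libraries: the large subunit took 2.01% and 3.42% in KO males and 4.198% and 2.49% in KO females, and the small subunit 1.41%, 2.62%, 3.10% and 1.798%.

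**Figure D2:**
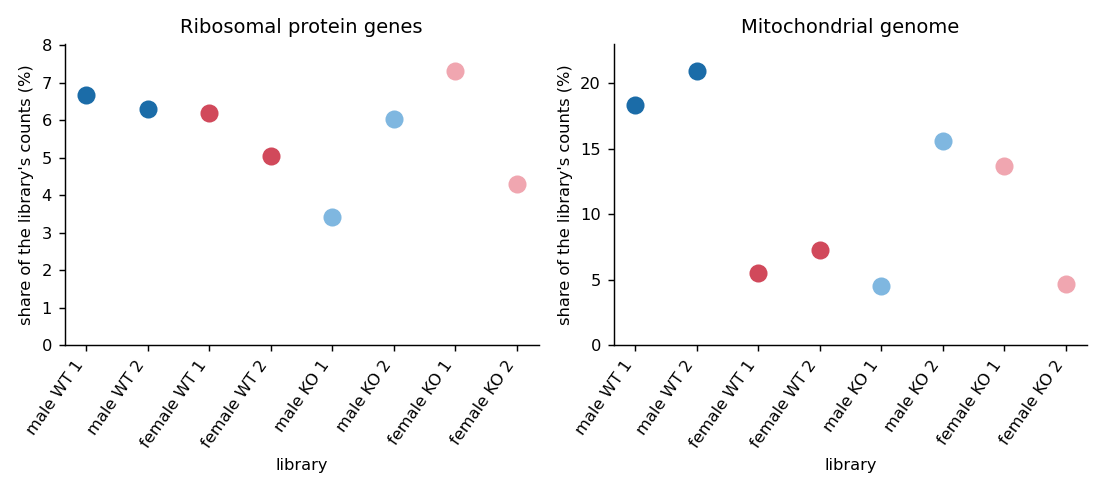
Share of each library's counts (%, vertical) on the 76 ribosomal protein genes (left) and on the 15 genes of the mitochondrial genome (right), 1 point a library. Male KO 1 and female KO 2 stand at 3.42% and 4.29% on the left and at 4.56% and 4.66% on the right.

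The share of counts on the mitochondrial genome is given beside the members because it also separates the libraries. It was 18.3% and 20.9% in WT males, 5.54% and 7.27% in WT females, 4.56% and 15.6% in KO males, and 13.6% and 4.66% in KO females. As a share of nuclear counts only, the members made up 8.17% and 7.95% in WT males, 6.55% and 5.43% in WT females, 3.58% and 7.15% in KO males, and 8.46% and 4.50% in KO females. In each sex the KO library with the lower mitochondrial share was also the one with the lower ribosomal protein share. The WT libraries went the other way: in each sex the one with the lower mitochondrial share had the higher ribosomal protein share. The part of the mitochondrial share in the members' values was not tested beyond a covariate in the fits, with the results and a limit given below.

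The libraries of a KO group differed from each other in nearly all members. In KO females all 75 tested members were higher in library 1 than in library 2, with a median distance of 0.89 on the log2 scale and the largest distance, 2.36, for Rps24. In male KO 70 of 75 members were higher in library 2, with a median distance of 0.99 and the largest, 2.09, for Rps25. The 2 WT groups were closer, with a median distance of 0.26 in WT males and 0.14 in WT females. Over all genes tested, the median distance was 0.49 between the male KO libraries and 0.28 between the female KO libraries. With its sign kept, library 2 minus library 1 had a median over all genes of -0.03 in KO males and 0.02 in KO females. Of the 75 members, 59 had their lowest level in male KO 1 and 26 their highest in female KO 1. The same count over all genes was not made.

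The first comparison asked whether ribosomal protein mRNA differed between KO and WT males. No member passed the threshold of an adjusted p under 0.05 in edgeR's quasi-likelihood test, against a background of 0% of the 18104 genes tested. None had an unadjusted p under 0.05 either, against 14.8% of all genes, and DESeq2 called 0 members against 2.69% of all genes. The values themselves leaned to 1 side: 71 of 75 log2 fold changes were negative, and their median was -0.39 where that of all genes was -0.06. The median was -0.36 over the large subunit and -0.40 over the small subunit. Between libraries of 1 group the member median of log2 CPM had a pooled SD of 0.57, which is larger than the median difference. In 30 of 75 members both male KO libraries lay below both male WT libraries, which holds for 23.9% of all genes, and in 0 members they lay above, against 19.7%. Without male KO 1 the median was -0.09, and without male KO 2 it was -0.93.

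The 5 members with the smallest p in males were Rpl36a, Rplp2, Rps6, Rpl26 and Rpl21, with edgeR adjusted p of 0.3535 to 0.3875. Rpl36a, an X-linked large subunit gene (chrX:134585654-134588062), had 2065 and 2236 CPM in WT males against 352 and 1093 CPM in KO males. The groups did not overlap, but the KO libraries differed by more than 3-fold from each other (log2 fold change -1.57, SE 0.73). Rps6, the substrate of the S6 kinases downstream of mTOR (chr4:86854099-86857367), had 515 and 413 CPM in WT males and 246 and 332 CPM in KO males (-0.68, SE 0.34). Rplp2, the partner of Rplp1 in the acidic stalk, had 502 and 387 CPM in WT males and 295 and 270 CPM in KO males (-0.65, SE 0.32). Rpl26, known to bind p53 mRNA, came out at -1.35 (SE 0.67), and Rpl21 at -1.07 (SE 0.56).

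**Figure D3:**
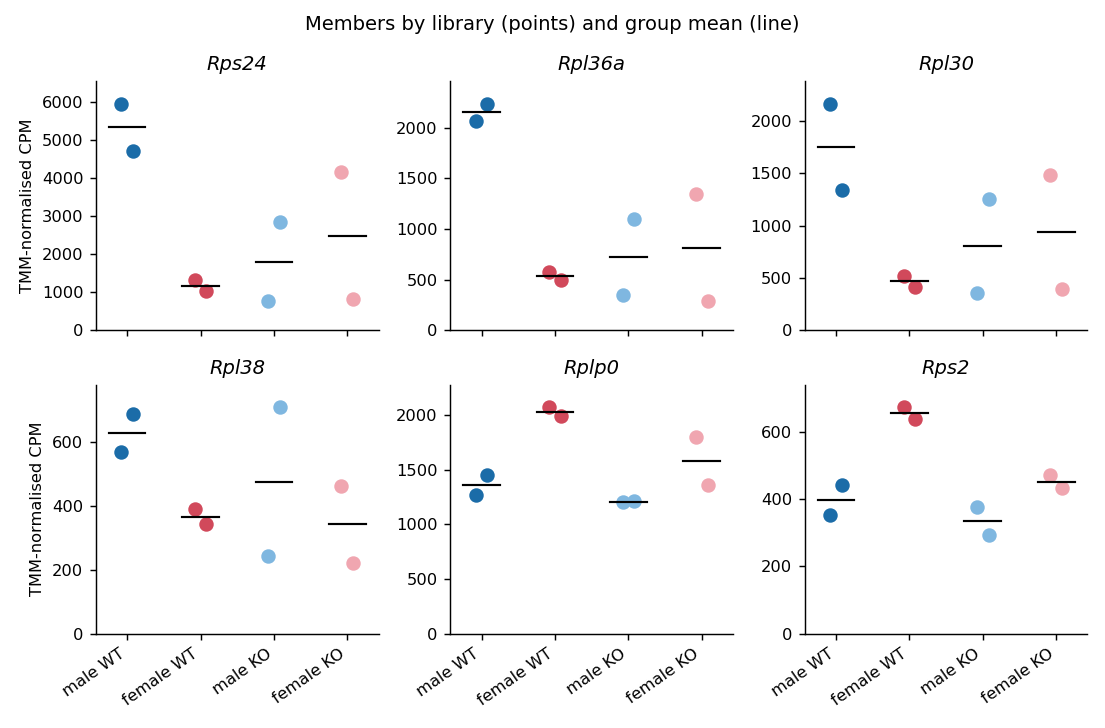
TMM-normalised CPM (vertical, from 0) of 6 members in the 4 groups, with each library as a point and the group mean as a line. Rps24, Rpl36a and Rpl30 are highest in WT males and spread widely within both KO groups, while Rplp0 and Rps2 are highest in WT females.

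In females the members had no common direction. No member passed the edgeR threshold (background 0%), and DESeq2 called 0 members against 0.795% of all genes. Rpl13 alone had an unadjusted p under 0.05, a share of the members below the 9.27% of all genes. The median log2 fold change was 0.02, with 40 positive and 35 negative values, and the median of all genes was 0.03. Both KO libraries lay below both WT libraries in 18 of 75 members, against 26.2% of all genes, and above them in 0, against 25.9%. The median was -0.47 without female KO 1 and 0.37 without female KO 2.

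The 5 members with the smallest p in females were Rpl13, Rps2, Rps10, Rpl30 and Rplp2. Rpl13, a large subunit gene (chr8:123102350-123105244), had 149 and 131 CPM in WT females and 102 and 90.04 CPM in KO females. Its groups did not overlap, with a log2 fold change of -0.54 (SE 0.24, adjusted p = 0.537). Rps2, which lies at the mRNA entry of the small subunit, had 673 and 639 CPM in WT females and 471 and 433 CPM in KO females (-0.54, SE 0.29). Rps10 had 490 and 412 CPM in WT females and 325 and 304 CPM in KO females (-0.52, SE 0.32). Rpl30 had 522 and 411 CPM in WT females against 1482 and 389 CPM in KO females, so that its positive value (1.00, SE 0.72) rests on female KO 1. Rplp2 had 590 and 658 CPM in WT females and 558 and 366 CPM in KO females (-0.43, SE 0.32).

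Over both sexes, with sex held in the fit, 0 of 75 members passed the edgeR threshold (background 0%) and DESeq2 called 0 (background 0.779%). The median log2 fold change was -0.20 against -0.01 for all genes, with 67 values negative and 8 positive. Rplp2 alone had an unadjusted p under 0.05, where 6.83% of all genes did (log2 fold change -0.54, SE 0.22, adjusted p = 0.718). No member had its 4 KO libraries all below or all above its 4 WT libraries, which holds for 1.63% and 1.68% of all genes. The median was 0.01 without male KO 1 and -0.45 without female KO 1.

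Members with the next smallest p over both sexes included genes of the small subunit. The log2 fold change was -0.39 (SE 0.21) for Rps2, -0.37 (SE 0.23) for Rps10 and -0.33 (SE 0.20) for Rps13, with adjusted p of 0.766 to 0.820. Farthest below the median of the family lay Rplp2, Rpl36a (-0.49, SE 0.65), Rpl26 (-0.45, SE 0.57), Rpl28 (-0.42, SE 0.27) and Rps2. Farthest above it lay Rps4x (0.20, SE 0.42), an X-linked small subunit gene, Rps27 (0.15, SE 0.59), Rpl24 (0.14, SE 0.35), Rpl17 (0.09, SE 0.60) and Rpl35a (0.09, SE 0.51). Each of the values above the median was smaller than its SE.

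Because the title ties the region to sex, the male and the female effect of the deletion were compared directly. No member passed the edgeR threshold for the difference (background 0%), and DESeq2 called 0 against 1.99% of all genes. The female effect minus the male effect had a median of 0.37 over the members and 0.03 over all genes, with 58 values positive. Rps24 alone had an unadjusted p under 0.05, where 16.7% of all genes did. Without female KO 1 the median was -0.09 and without male KO 2 it was 0.90.

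Rps24, a small subunit gene mutated in some Diamond-Blackfan families (chr14:24490678-24496960), had the largest difference and the smallest p. It had 5947 and 4704 CPM in WT males, 753 and 2827 CPM in KO males, 1318 and 1017 CPM in WT females, and 4144 and 809 CPM in KO females. The KO libraries of each sex stood more than 3-fold apart, and female KO 2 lay below both female WT libraries while female KO 1 lay above them. The difference of log2 fold changes was 2.66 (SE 1.16, adjusted p = 0.297), made up of a male effect of -1.57 (SE 0.83) and a female effect of 1.08 (SE 0.82). Rpl36a (2.18, SE 1.03), Rpl30 (2.13, SE 1.02), Rps15a (1.79, SE 0.91) and Rpl21 (1.51, SE 0.78) had the next smallest p, with adjusted p of 0.316 to 0.348.

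**Figure D4:**
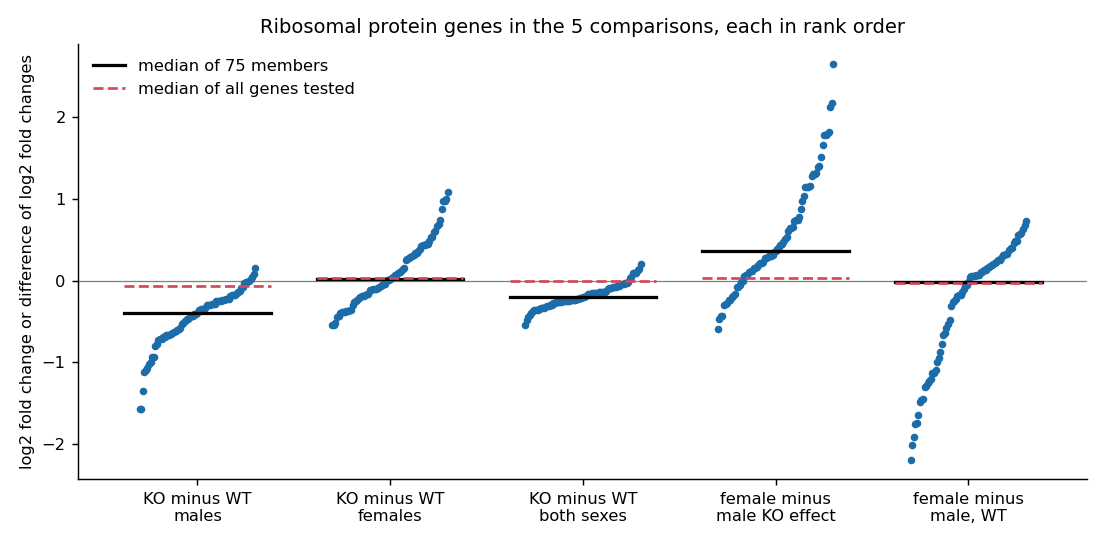
Log2 fold changes of the 75 tested members in 5 comparisons (for the fourth, the difference of 2 log2 fold changes), in rank order within each, with the member median as a solid line and the median of all genes tested as a dashed line. The member median is -0.39 in males and 0.02 in females, and the spread is widest in the last 2 columns.

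Between the sexes in WT, the members' values lay on both sides of 0 and far apart. No member passed the edgeR threshold, against 0.00552% of all genes, while 7 members were lower and 3 higher in females at an unadjusted p under 0.05, 10 of 75 against 27.3% of all genes. DESeq2 called 8 members, a share near its 11.6% of all genes. Those lower in WT females were Rps24 (edgeR log2 fold change -2.19, SE 0.84), Rpl36a (-2.005, SE 0.74), Rpl30 (-1.91, SE 0.74), Rps15a (-1.76, SE 0.65), Rps27 (-1.74, SE 0.75), Rpl26 (-1.64, SE 0.68) and Rpl22 (-1.49, SE 0.60). Rps2 was higher in WT females (0.73, SE 0.30). Adjusted p from edgeR were 0.145 to 0.177 for these 8, and the median over all members was -0.01.

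Members with a known role in the axial skeleton, in p53 control or as reference genes showed the same picture. Rpl38, needed for the translation of a subset of Hox mRNAs and for the number of ribs and vertebrae (chr11:114667818-114672333), had 569 and 689 CPM in WT males, 243 and 709 CPM in KO males, 390 and 344 CPM in WT females, and 464 and 222 CPM in KO females. KO and WT libraries overlapped in both sexes, with a male log2 fold change of -0.40 (SE 0.52) and a female one of -0.10 (SE 0.52). Rpl24, the gene of the belly spot and tail mouse, had a male value of -0.003 (SE 0.50) and a female value of 0.27 (SE 0.50). Rpl5 and Rpl11, which together bind the p53 inhibitor Mdm2 when ribosome assembly fails, had -0.36 (SE 0.53) and -0.71 (SE 0.63) in males, and 0.29 (SE 0.53) and 0.67 (SE 0.63) in females. Rps19, the gene most often mutated in Diamond-Blackfan anaemia, had -0.25 (SE 0.33) in males and -0.26 (SE 0.33) in females.

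Reference genes of this family were not level across the libraries. Rplp0, the base of the acidic stalk and a common reference in quantitative PCR, had 1270 and 1454 CPM in WT males, 2071 and 1988 CPM in WT females, 1200 and 1214 CPM in KO males and 1796 and 1363 CPM in KO females. Female WT stood above all other libraries, and female KO 2 lay below male WT 2. Rpl13a ranged 2.31-fold, from 290 to 670 CPM, and Rps18 ranged 2.58-fold, from 536 to 1379 CPM. The steadiest tested member was Rps9, with 161 to 227 CPM and a 1.41-fold range, and the least steady was Rps24 with a 7.89-fold range. In the median member the highest library stood 2.58-fold above the lowest, and 19 of 75 members ranged more than 4-fold. These ranges were not counted over all genes, so they are not shown to be particular to the family.

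The make-up of the family, each member's share of all ribosomal protein counts, also differed between libraries. Rps24 took 7.52% and 6.80% of the members' counts in WT males, 2.44% and 2.07% in WT females, 2.49% and 4.22% in KO males, and 5.25% and 2.21% in KO females. Rps2 did the opposite, with 0.445% and 0.637% in WT males, 1.24% and 1.30% in WT females, 1.24% and 0.436% in KO males, and 0.597% and 1.18% in KO females. Rps18 kept close to 1 share, from 1.57% to 2.06%, and Rpl27a from 0.901% to 1.25%. Neither genotype nor sex separated the high from the low libraries for Rps24 or Rps2.

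These shares went with the G and C content of the coding sequence. Coding GC ran from 44.9% in Rpl30 to 61.6% in the member with the most, and the median of the members (52.8%) lay close to that of other genes (52.9%). To show the contrast, the first 90 coding bases of 2 members with little GC and 2 with much are printed from GENCODE M21 transcripts, with G and C in capitals. These 4 were chosen after their values were seen. Rpl30 has 44 of 90 bases as G or C and Rps24 has 42, against 68 in Rps2 and 59 in Rpl8. Over the whole coding sequence GC is 44.93%, 46.12%, 58.36% and 58.75% in the same order. The first 90 bases thus show a wider contrast than the whole sequences.
Rpl30: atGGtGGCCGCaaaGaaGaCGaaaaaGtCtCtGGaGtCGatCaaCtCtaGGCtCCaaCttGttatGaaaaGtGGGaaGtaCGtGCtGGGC
Rps24: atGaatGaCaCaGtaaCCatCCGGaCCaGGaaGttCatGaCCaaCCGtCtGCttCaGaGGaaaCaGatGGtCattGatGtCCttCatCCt
Rps2: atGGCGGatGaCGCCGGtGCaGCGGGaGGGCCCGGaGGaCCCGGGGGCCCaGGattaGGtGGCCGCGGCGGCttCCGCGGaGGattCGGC
Rpl8: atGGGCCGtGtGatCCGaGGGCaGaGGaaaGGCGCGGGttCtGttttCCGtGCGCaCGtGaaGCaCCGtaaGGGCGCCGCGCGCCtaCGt

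The 25 members with the lowest coding GC (44.9% to 50.8%) took 54.5% and 52.0% of the members' counts in WT males, 33.8% and 32.1% in WT females, 36.1% and 49.3% in KO males, and 45.1% and 33.8% in KO females. The 25 with the highest coding GC (54.7% to 61.6%) took 21.7% and 21.6% in WT males, 34.3% and 35.8% in WT females, 33.2% and 22.4% in KO males, and 27.1% and 33.6% in KO females. Male WT 1 and 2, male KO 2 and female KO 1 thus had more counts on members with little GC than the other 4 libraries, and these 4 also had the highest mitochondrial shares. As a description over 75 members that share libraries, Spearman's rho of a member's log2 share, relative to its mean, with coding GC was -0.59 and -0.57 in WT males, 0.71 and 0.69 in WT females, 0.59 and -0.65 in KO males, and -0.33 and 0.53 in KO females.

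**Figure D5:**
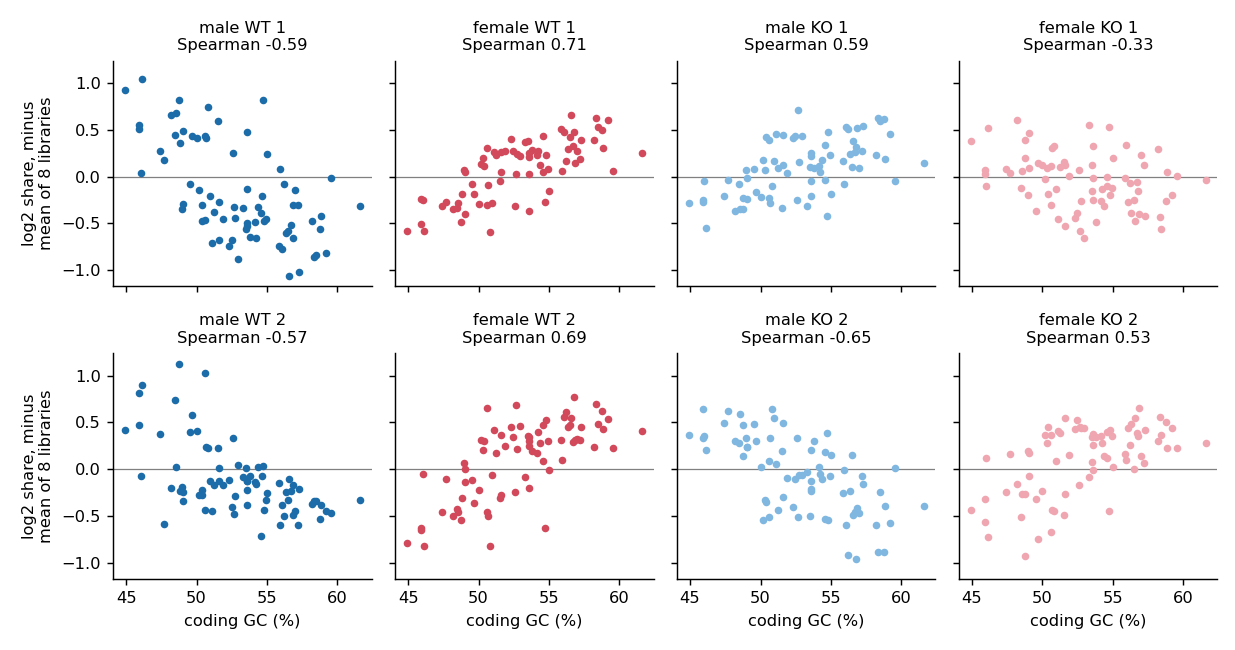
Log2 share of each of 75 members among all ribosomal protein counts, minus its mean over the 8 libraries (vertical), against the GC content of its coding sequence (%, horizontal), 1 panel a library with Spearman's rho. The slope is negative in male WT 1 and 2, male KO 2 and female KO 1 and positive in the other 4 libraries.

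The relation with GC was not particular to the family. For 17380 other tested nuclear genes, log2 CPM relative to each gene's mean was used in place of the share. Its rho with coding GC had the same sign as in the members in all 8 libraries. It ran from -0.58 in male KO 2 to 0.50 in female WT 1. The members' log2 fold changes followed coding GC as well, with rho of 0.39 in males, -0.61 in females, -0.29 over both sexes and 0.71 for the sex difference in WT. Over the other genes rho was 0.19, -0.43, -0.16 and 0.48 in the same order. With transcript length in place of coding GC, rho was 0.18, -0.07, 0.09 and 0.15 over the members. Over the other genes it was 0.30, 0.12, 0.37 and 0.10, so in males and over both sexes their values followed length more closely than GC. Members are short, with a median transcript of 705 nucleotides against 2640 in other genes. With a trend on transcript length taken out of each library, the members' medians became -0.03 for males, -0.03 for females and -0.07 with both sexes. With a trend on coding GC taken out it was -0.36, 0.10 and -0.17. A covariate for the mitochondrial share turned the male median to 0.29 and the female one to -0.29, and 0 members were called in any of these fits.

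Genes that work with the ribosome gave no edgeR call in any comparison. Of 14 other genes with a TOP motif, most of which encode elongation or initiation factors, 10 had negative values in males (median -0.28) and 9 in females (median -0.02). Eif3f, a subunit of initiation factor eIF3, had the smallest p among them over both sexes (-0.53, SE 0.19, adjusted p = 0.686). Of 15 translation factors without the motif, 11 were negative in males (median -0.13) and 5 in females (median 0.17). The 26 ribosome biogenesis genes had medians of 0.09 in males and -0.09 in females. Between the sexes in WT, DESeq2 called 6 of them higher in females, against its 11.6% of all genes in either direction. Rrp12, a factor of subunit export, had 0.94 (SE 0.30) in males and -0.01 (SE 0.30) in females.

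Among 19 genes of mTOR and Myc control, the mTOR inhibitor Deptor had a male log2 fold change of 2.21 (SE 0.28) and a female one of -0.24 (SE 0.27). DESeq2 called Deptor in males (adjusted p = 1.75e-08), 1 of the 19 against 2.69% of all genes. For the sex-by-genotype difference it called 2 of the 19, against 1.99% of all genes. These were Deptor (adjusted p = 9.684e-05) and Eif4ebp2, a repressor of cap-dependent translation (-1.49, adjusted p = 0.0283). In both comparisons edgeR called 0 of all 18104 genes. Between the sexes in WT, DESeq2 called both higher in females, Deptor (1.29, adjusted p = 0.00254) and Eif4ebp2 (1.19, adjusted p = 0.00355). They were its only calls among the 19 genes there, 2 of 19 against 11.6% of all genes. Log2 values beside these DESeq2 calls are those of edgeR. Of 13 p53 targets DESeq2 called Cdkn1a, the cell cycle inhibitor p21, in males (0.77, adjusted p = 0.0443), where it called 2.69% of all genes. The female value of Cdkn1a was -0.51, and DESeq2 called the difference between the sexes (-1.28, adjusted p = 0.0179). Already in WT, DESeq2 called Cdkn1a higher in females (0.99, adjusted p = 0.00234). There it called 1 of the 13 p53 targets higher and 2 lower, against 11.6% of all genes. Of 10 genes of the integrated stress response DESeq2 called Atf3 in males (1.04, adjusted p = 0.0302). DESeq2 called none of these lists' genes in females or over both sexes. The 6 transcription factors named at ribosomal protein promoters had medians of 0.03 in males and 0.13 in females with 0 calls by either tool, and the factor with the smallest p over both sexes was Sp1 (0.29, SE 0.17).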

How the data were processed

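The authors deposited 1 table of read counts per gene, whole numbers by Entrez ID with no normalization, for the 8 libraries. Frozen spines were extracted with TRIzol and libraries made with a stranded poly(A) kit, per the labels' protocols. FastQC 1.0.0, MultiQC 1.0.0, HISAT2, featureCounts and mm10 are named without settings, per the submitters' processing notes. The annotation, the strand setting and the handling of reads with several matches are not stated there.

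Symbols came from RefSeq GRCm38.p6 (25275 genes) and GENCODE M21 (18), with 1886 unnamed. Lengths and coding GC came from the shortest principal GENCODE M21 transcript, or from another transcript where a gene had no principal one. For a transcript without a coding sequence, the GC content of the whole transcript was used. Genes were filtered with filterByExpr (minimum count 10), which left 18104, scaled by TMM and tested with edgeR 4.0.16 (R 4.3.3) in a quasi-likelihood fit of 4 group means or of sex plus genotype. SE is the log2 fold change over the square root of F. Adjusted p-values are Benjamini-Hochberg over all genes tested, two-sided. The biological coefficient of variation was 27.8%. DESeq2 1.42.0 and limma voom 3.58.1 were alternatives. The fits were tested on simulated data.

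Members and lists were chosen with earlier results of these data known. Members named are the 5 with the smallest p in each genotype comparison and in the sex-by-genotype difference, the 5 highest and 5 lowest per length, the 5 farthest above and below the family's median over both sexes, and those with a textbook role, and in each other list up to 4 genes by p. Only some of each are described, and some genes are not reported here.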

Additional observations from a re-analysis of the deposited data

How the results depend on the processing

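The count of members called was 0 in all 5 comparisons under every alternative of normalization, tool, filter, library size, covariate, trend or left-out library, except the sex difference in WT, where DESeq2 called 8. With a replicate block the medians were -0.36 in males, 0.01 in females, -0.19 over both sexes, 0.36 for the sex-by-genotype difference and -0.001 for the sex difference in WT. Differences between libraries 1 and 2 correlated between groups at -0.53 to 0.18 over all genes and at -0.78 to 0.60 over the members. The correlations thus had no common sign, but they cannot decide whether libraries with the same number were processed together. The male share over nuclear counts alone averaged 8.06% in WT.

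With the members' total as library size, the median was 0.27 in males and -0.40 for the sex-by-genotype difference, and values changed sign for Rplp2 (0.21) and Rps6 (0.0699) in males and for Rps10 (0.0152), Rps13 (0.04775) and Rps2 (0.0597) over both sexes. Scaling by the members' total takes out any shift that they share, so sign changes are built into that fit. A covariate for the mitochondrial share gave a median of 0.29 in males, -0.55 for the sex-by-genotype difference and 0.89 for the sex difference in WT. Signs then changed for Rpl21 (0.0135) and Rpl26 (0.0147) in males, and for Rpl21 (-0.11), Rpl36a (-0.19) and Rps15a (-0.0449) in the sex-by-genotype difference. Under limma voom, Rpl17 (-0.0593) and Rpl35a (-0.0864) changed sign over both sexes. The cause of the changes under the covariate and under limma voom was not tested. With a coding GC trend removed, chosen after seeing the data, no median and no named member's value changed sign.

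Refits without 1 library each took the female value of Rpl30 from -0.26 (female KO 1 left out) to 1.67 (female KO 2 left out). Over both sexes Rpl17 moved between -0.57 and 0.55, Rpl35a between -0.47 and 0.46, Rps27 between -0.51 and 0.60 and Rpl36a between -1.30 and 0.0201, each lowest without female KO 1 and highest without male KO 1. Rpl24 moved between -0.19 and 0.39 and Rps4x between -0.17 and 0.50, lowest without male KO 2 and highest without male KO 1. The tested members had at least 3294 counts in every library.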
